A study of Mus musculus with 3 samples.

Results

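Intracisternal A particle (IAP) elements are endogenous retroviruses of the mouse, and their RNA was examined here as all 25 repeat names that start with IAP, of 18484 names listed. The names were chosen by spelling, with earlier results of these data known. Of them, 10 are internal names (ending in -int or _I), which stand for the retroviral body between the terminal repeats, and 15 are long terminal repeat (LTR) names, which stand for the flanking promoter and polyadenylation sequences. They took 721 reads in a ZBP1 pull-down from PS19 hippocampus (ZBP1/PS19), 2280 in a pull-down of Z-form nucleic acid (ZNA/PS19) and 1057 in the latter pull-down from wild-type tissue (ZNA/WT). One name, IAPA_MM-int, had no read in any library, and 20 of the 25 had reads in all 3.

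The 3 libraries are RNA immunoprecipitations (RIP-seq, sequencing of antibody-bound RNA) from hippocampus of C57BL/6 mice aged 9 months. PS19 mice express a mutant human tau from a transgene driven by the mouse prion promoter, and the wild-type (WT) group has no allele or treatment in the labels. There was 1 library per group, the labels do not say how many mice went into a library, and no input or isotype library was used here, so the levels below are levels in a pull-down and not enrichments. No value has a replicate error. All intervals are exact 95% intervals for counting error alone. The labels name no molecular identifiers, so reads may not be independent molecules, and a ratio compares 2 libraries and not the genotypes or antibodies.

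An IAP provirus is made of an internal part with gag and pol genes between identical LTRs, and it copies itself inside the cell through an RNA intermediate. The label IAPE goes back to IAP elements that also carry an envelope gene. A name with this label, such as IAPEz-int, does not show that the copies counted here carry one. IAP copies are among the youngest and most mobile elements of the mouse genome, and in somatic tissue they are held silent by DNA methylation and by histone methylation that KRAB zinc finger proteins direct. ZBP1 is a sensor whose Zα domains hold the left-handed form of double-stranded nucleic acid, and double-stranded RNA from endogenous retroelements has been proposed as one source of such RNA. A name sums all genomic copies of its repeat, so no position, strand or single provirus can be given, and copies of related IAP names share sequence, which makes values of single names less certain than those of the pools.

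The libraries ZBP1/PS19, ZNA/PS19 and ZNA/WT held 1425383, 2918985 and 3234786 reads over all listed names. The 2 ribosomal RNA names LSU-rRNA_Hsa and SSU-rRNA_Hsa took most of these, and the remaining reads made up 5.22%, 10.6% and 4.49% of the libraries. This share moves with every ratio per library total below. Pooled levels and ratios are therefore given in CPM, the reads divided by the library total and scaled to a common size, and also relative to the reads outside the 2 rRNA names. Names with 20 or more reads in a library are given as reads and on both scales, and shallower names as reads. For a name with 0 reads the upper limit, 3 reads, was 2.10, 1.03 and 0.927 CPM in the libraries, in the order ZBP1/PS19, ZNA/PS19 and ZNA/WT, which is the bound for IAPA_MM-int.

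Pooled over all 25 names, IAP reads stood at 506 CPM (470 to 544) in ZBP1/PS19, 781 CPM (749 to 814) in ZNA/PS19 and 327 CPM (307 to 347) in ZNA/WT. ZNA/PS19 was thus the highest and ZNA/WT the lowest, with intervals that did not overlap. As a share of the reads outside rRNA, IAP names took 0.968% (0.899 to 1.04%) of ZBP1/PS19, 0.739% (0.709 to 0.770%) of ZNA/PS19 and 0.727% (0.684 to 0.772%) of ZNA/WT. On this scale the intervals of the 2 ZNA libraries overlapped and ZBP1/PS19 was the highest. The order of the 3 libraries thus differed between the scalings.

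**Figure D1:**
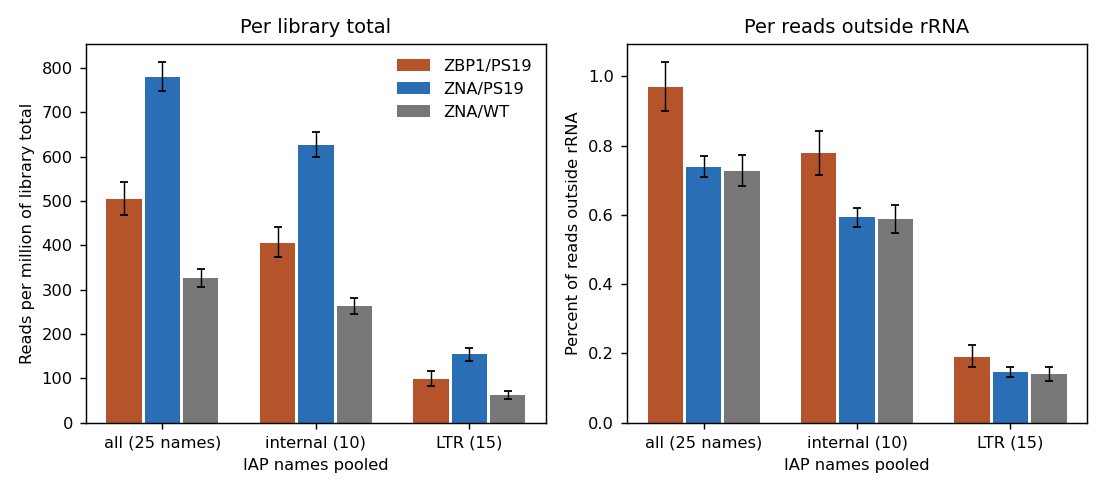
Reads on all IAP names, on internal names and on LTR names in the 3 libraries, in CPM (left) and as a percent of reads outside rRNA (right); bars are single libraries and error bars are exact 95% counting intervals. ZNA/PS19 is highest on the left at 781 CPM for all names, and ZBP1/PS19 is highest on the right at 0.968%.

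Internal names carried most IAP reads, and the balance of internal to LTR reads was alike in the 3 libraries. There were 579 internal and 142 LTR reads in ZBP1/PS19, a ratio of 4.08 (3.39 to 4.93). ZNA/PS19 had 1830 and 450 reads, a ratio of 4.07 (3.67 to 4.52), and ZNA/WT had 853 and 204 reads, a ratio of 4.18 (3.58 to 4.90). These are ratios of reads, not scaled to the length of the parts, which the files do not give. The odds ratio of internal against LTR reads was 0.973 (0.804 to 1.17) for PS19 against WT in the ZNA pull-down. It was 1.003 (0.809 to 1.25) for ZBP1 against ZNA in PS19. Any shift of the balance smaller than these intervals was not detectable at this depth.

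The internal to LTR ratio rested on 1 internal name. IAPEz-int, the internal part of the IAP elements that IAPLTR1 and IAPLTR2 sequences flank, had 473 reads in ZBP1/PS19, 1380 in ZNA/PS19 and 659 in ZNA/WT. Its levels were 332, 473 and 204 CPM, or 0.635%, 0.447% and 0.453% of the reads outside rRNA. It made up 65.6% (62.0 to 69.1%), 60.5% (58.5 to 62.5%) and 62.3% (59.3 to 65.3%) of all IAP reads. Without it, the internal to LTR ratio was 0.746 (0.575 to 0.967) in ZBP1/PS19, 1 (0.876 to 1.14) in ZNA/PS19 and 0.951 (0.777 to 1.16) in ZNA/WT. ZBP1/PS19 then had the lowest ratio, with an interval that overlapped those of both ZNA libraries. Overlap of intervals does not show equal ratios, and no odds ratio was computed without IAPEz-int.

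The other internal names were far lower than IAPEz-int in every library. IAPEY3-int, an internal name of the IAPEY group, had 26 reads (18.2 CPM) in ZBP1/PS19, 116 reads (39.7 CPM) in ZNA/PS19 and 46 reads (14.2 CPM) in ZNA/WT. IAPEY4_I, of the same group of names, had 26, 80 and 34 reads, in the same order, or 18.2, 27.4 and 10.5 CPM. IAPEy-int had 12, 65 and 31 reads, or 8.42, 22.3 and 9.58 CPM. Each of these was highest in ZNA/PS19 per library total. The order of the libraries changed with the scaling for IAPEY4_I and IAPEy-int, but not for IAPEY3-int. As shares of the reads outside rRNA, IAPEY3-int stood at 0.0349%, 0.0376% and 0.0316%, IAPEY4_I at 0.0349%, 0.0259% and 0.0234% and IAPEy-int at 0.0161%, 0.0211% and 0.0213%. On that scale IAPEY4_I was highest in ZBP1/PS19 and IAPEy-int about level in both ZNA libraries. IAP-d-int, a further internal name, had 17 reads (11.9 CPM), 79 reads (27.1 CPM) and 44 reads (13.6 CPM). IAP1-MM_I had 14, 47 and 27 reads, or 9.82, 16.1 and 8.35 CPM. Outside rRNA these names took 0.0228%, 0.0256% and 0.0303%, and 0.0188%, 0.0152% and 0.0186%, so ZNA/PS19 was highest for neither. IAPLTR3-int, the internal part named after the LTR IAPLTR3, had 11 reads (7.72 CPM), 46 reads (15.8 CPM) and 11 reads (3.40 CPM), or 0.0148%, 0.0149% and 0.00757% of the reads outside rRNA. It was the internal name, among those with 20 or more reads in a library, on which ZNA/WT fell farthest below ZNA/PS19.

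Among LTR names, the IAPLTR2 names held the most reads. IAPLTR2_Mm had 31 reads (21.7 CPM) in ZBP1/PS19, 117 reads (40.1 CPM) in ZNA/PS19 and 59 reads (18.2 CPM) in ZNA/WT, and its share of the reads outside rRNA was nearly level at 0.0416%, 0.0379% and 0.0406%. IAPLTR2a2_Mm had 18, 77 and 19 reads, or 12.6, 26.4 and 5.87 CPM, and 0.0242%, 0.0250% and 0.0131% of the reads outside rRNA. IAPLTR2a had 15, 39 and 12 reads, or 10.5, 13.4 and 3.71 CPM, and 0.0201%, 0.0126% and 0.00825%. On both of the last named ZNA/WT was the lowest on either scale. IAPLTR2b had 7 reads (4.91 CPM), 33 reads (11.3 CPM) and 23 reads (7.11 CPM), and 0.00940%, 0.0107% and 0.0158% of the reads outside rRNA, with ZBP1/PS19 the lowest on either scale. The IAPLTR1 names mark the youngest IAP insertions, and IAPLTR1a_Mm had 7, 46 and 18 reads, or 4.91, 15.8 and 5.56 CPM, and 0.00940%, 0.0149% and 0.0124% of the reads outside rRNA. Of the IAPEY LTRs, IAPEY2_LTR had 22 reads (15.4 CPM), 48 reads (16.4 CPM) and 32 reads (9.89 CPM). The PS19 pull-downs lay close together in CPM, but as shares of the reads outside rRNA, 0.0295%, 0.0156% and 0.0220%, ZBP1/PS19 was the highest and ZNA/PS19 the lowest. IAPEY3_LTR had 10, 25 and 11 reads, or 7.02, 8.56 and 3.40 CPM, and 0.0134%, 0.00810% and 0.00757% of the reads outside rRNA. IAPEY_LTR had 5, 23 and 9 reads, or 3.51, 7.88 and 2.78 CPM, and 0.00671%, 0.00745% and 0.00619%.

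The remaining 10 names had at most 17 reads in any library, a depth at which single names cannot be compared. IAPLTR1_Mm reached that number in ZNA/PS19, against 8 reads in ZBP1/PS19 and 3 in ZNA/WT, and is named after its values were seen. The others include the partners of some names above. IAPEY4_LTR had 0, 1 and 0 reads in the 3 libraries, in the order ZBP1/PS19, ZNA/PS19 and ZNA/WT, beside the 26, 80 and 34 reads of IAPEY4_I. IAPLTR3 had 0, 3 and 1 reads beside the 11, 46 and 11 of IAPLTR3-int. The internal name thus held 98.8% (93.3 to 99.97%) of the reads of IAPEY4 in ZNA/PS19 and 93.9% (83.1 to 98.7%) of those of IAPLTR3, not scaled to length, and for IAPLTR3 in ZNA/WT the interval was as wide as 61.5 to 99.8%. For IAPLTR4 the LTR name had 6, 8 and 6 reads and IAPLTR4_I had 0, 6 and 0. IAPEY5_I had 0, 11 and 1 reads and IAPEY5_LTR 3, 2 and 3. IAP1-MM_LTR had 6, 5 and 5 reads against 14, 47 and 27 on IAP1-MM_I, and the internal to LTR ratio of IAP1-MM was 2.33 (0.842 to 7.41), 9.40 (3.76 to 30.3) and 5.40 (2.05 to 18.0). For IAPEY3, with IAPEY3_LTR and IAPEY3C_LTR as its LTRs, the ratio was 1.86 (0.935 to 3.85) in ZBP1/PS19, 3.74 (2.499 to 5.76) in ZNA/PS19 and 3.29 (1.77 to 6.47) in ZNA/WT. For both stems ZBP1/PS19 had the lowest ratio, and its interval overlapped those of the ZNA libraries. This overlap does not show equal ratios, and no odds ratio was computed by stem.

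**Figure D2:**
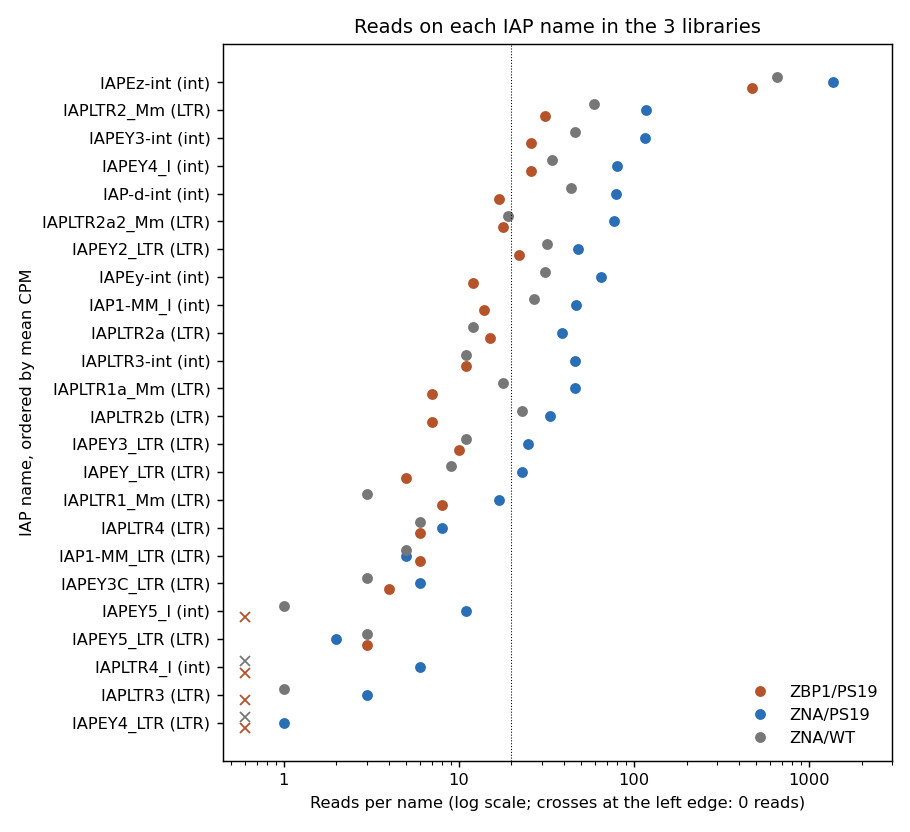
Reads on each IAP name with a read, on a log axis, in ZBP1/PS19, ZNA/PS19 and ZNA/WT, with names ordered by mean CPM; crosses mark 0 reads, the dotted line marks 20 reads, and reads are not scaled to depth. IAPEz-int, with 473 to 1380 reads, stands apart from all other names, which had at most 117.

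The first comparison set IAP RNA pulled down as Z-form nucleic acid in the PS19 library beside that in the WT library. Per library total it was higher in the PS19 library for both parts of the element, and relative to the reads outside rRNA the intervals included equal levels. Internal names were 2.38-fold higher (2.19 to 2.58) and LTR names 2.44-fold higher (2.07 to 2.90) in ZNA/PS19 than in ZNA/WT per library total. Relative to the reads outside rRNA the ratios were 1.01 (0.931 to 1.10) and 1.04 (0.879 to 1.23). IAPEz-int alone had ratios of 2.32 (2.11 to 2.55) and 0.986 (0.898 to 1.08). The share of reads outside rRNA, 10.6% against 4.49%, moved with the ratio per library total, and the ratio per reads outside rRNA leaves that share out. Why the share differed, and which scaling lies closer to the RNA level, was not tested.

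Single names followed the pool. Comparison of a name required a mean level of 1 CPM or more and a sum of 20 reads or more over both libraries, which 16 IAP names met (7 internal, 9 LTR). The remaining 9 names had at most 11 reads in any library. At a limit of 2-fold on log2(CPM + 1), 12 of the 16 were higher in PS19 per library total, 5 internal and 7 LTR, and 0 were lower. Among the 713 names compared in all, the same limit was passed upward by 74.3% and downward by 0.421%, so the IAP names stood near the background. The median log2 ratio was 1.22 over the 16 IAP names and 1.24 over all names. Scaled to reads outside rRNA, 0 of 16 IAP names passed 2-fold in either direction, against 3.52% of all names higher and 2.39% lower, and the median was 0.11 for IAP and 0.07 for all names.

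The exact interval of the ratio lay above equal levels per library total for 15 of the 16 names, against 84.3% of all names, and below it for 0, against 0.842%. The exception was IAPLTR2b, with a ratio of 1.59 (0.906 to 2.84). With rRNA left out of the total, 2 names had an interval above equal levels and 0 below, against 14.6% and 6.47% of all names. They were the LTR IAPLTR2a2_Mm, with 77 reads in PS19 and 19 in WT and a ratio of 1.91 (1.14 to 3.34), and the internal name IAPLTR3-int, with 46 and 11 reads and a ratio of 1.97 (1.01 to 4.22). At unadjusted 95% intervals, 2 of 16 is close to the share of all names. The log2 ratios of the 16 names had a standard deviation of 0.55, against 0.43 from counting error.

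The 4 IAPLTR2 names lay on both sides of equal levels in this comparison, with intervals that overlapped. That overlap does not show that the names were alike, and no odds ratio between them was computed. Per reads outside rRNA, IAPLTR2a2_Mm and IAPLTR2a had ratios of 1.91 and 1.53 (0.785 to 3.21), while IAPLTR2_Mm had 0.934 (0.677 to 1.30) and IAPLTR2b 0.676 (0.385 to 1.21). Pooled, the 4 IAPLTR2 names had a ratio of 1.11 (0.887 to 1.39), which includes equal levels. IAPLTR1_Mm and IAPLTR1a_Mm together had 63 reads in PS19 and 21 in WT, a ratio of 1.41 (0.851 to 2.44). The 10 IAPEY and IAPEy names had 377 and 170 reads and a ratio of 1.04 (0.869 to 1.26).

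The second comparison was between the antibodies, within PS19 tissue. Here the direction depended on the scaling. Per library total, internal names had a ZBP1 to ZNA ratio of 0.648 (0.589 to 0.712) and LTR names 0.646 (0.531 to 0.782). Relative to the reads outside rRNA, the ratios were 1.31 (1.19 to 1.44) for internal names and 1.31 (1.08 to 1.58) for LTR names. The share of reads outside rRNA, 5.22% in ZBP1/PS19 and 10.6% in ZNA/PS19, moved with the first pair of ratios. Measured against all other reads outside rRNA, the odds of an IAP read were 1.31 times as high in ZBP1/PS19 (1.21 to 1.43). In ZNA/WT, by comparison, the odds were within counting error of those in ZNA/PS19 (odds ratio of PS19 over WT 1.02, 0.944 to 1.09).

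Most of the higher IAP share in ZBP1/PS19 lay on IAPEz-int. Its ZBP1 to ZNA ratio was 1.42 (1.28 to 1.58) per reads outside rRNA, and 0.702 (0.631 to 0.780) per library total. The other 9 internal names together had 106 and 450 reads, and ratios of 0.976 (0.782 to 1.21) per reads outside rRNA and 0.482 (0.387 to 0.597) per library total. IAPEz-int thus made up more of the internal reads in ZBP1/PS19 than in ZNA/PS19, with an odds ratio of 1.45 (1.14 to 1.86) against the other internal names. The same odds ratio for PS19 against WT ZNA was 0.903 (0.741 to 1.10). All 24 IAP names other than IAPEz-int, pooled, had a ratio of 1.14 (0.988 to 1.32) per reads outside rRNA, an interval that includes equal levels. That pool joins the other internal names, at 0.976, with the LTR names, at 1.31 (1.08 to 1.58). The higher share in ZBP1/PS19 was thus not confined to IAPEz-int.

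The LTRs that flank IAPEz-int had a lower ratio. The 6 IAPLTR1 and IAPLTR2 names had 86 reads in ZBP1/PS19 and 329 in ZNA/PS19, a ratio of 1.08 (0.844 to 1.38) per reads outside rRNA. The ratio of IAPEz-int reads to reads on these LTRs was 5.50 (4.36 to 7.004) in ZBP1/PS19, 4.19 (3.72 to 4.74) in ZNA/PS19 and 4.92 (4.08 to 5.97) in ZNA/WT. These LTR reads, relative to IAPEz-int, had an odds ratio of 0.763 (0.581 to 0.993) for ZBP1 against ZNA in PS19, an interval whose upper end lay just below equal odds. For PS19 against WT ZNA it was 1.17 (0.935 to 1.47). The IAPEY LTRs had a higher ratio. The 6 of them had 44 and 105 reads and a ratio of 1.74 (1.19 to 2.49) per reads outside rRNA and 0.858 (0.589 to 1.23) per library total, while the 4 IAPEY and IAPEy internal names had 64 and 272 reads and a ratio of 0.975 (0.731 to 1.28). These groupings by the stem of the name were made after the values had been seen, and are descriptions.

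By name, 6 of the same 16 IAP names were lower by 2-fold or more in ZBP1/PS19 per library total (3 internal, 3 LTR) and 0 higher, against 50.1% and 0.293% of all 682 names compared. The 6 were IAP-d-int, IAPEY3-int, IAPEy-int, IAPLTR1a_Mm, IAPLTR2a2_Mm and IAPLTR2b, with ratios between 0.312 and 0.479. These ratios carry no pseudocount, while the limit was set on log2(CPM + 1). Without a pseudocount, IAPEY_LTR (0.445) and IAPLTR3-int (0.490) were also lower by more than 2-fold. Scaled to reads outside rRNA 0 of 16 passed 2-fold either way, against 8.09% of all names higher and 8.09% lower. The median log2 ratio was -0.90 for IAP names and -1.002 for all names per library total, and 0.06 and -0.05 per reads outside rRNA.

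By the exact interval, 9 of 16 names were lower and 0 higher in ZBP1/PS19 per library total, against 67.3% and 2.35% of all names. With rRNA left out of the total, 2 names were higher and 0 lower, against 18.8% and 18.7% of all names. They were IAPEz-int and IAPEY2_LTR, whose 22 and 48 reads gave a ratio of 1.90 (1.09 to 3.21). The log2 ratios of the 16 IAP names had a standard deviation of 0.48, against 0.46 from counting error. Each name weighs alike, so names with few reads set most of both values. These values do not show that the names were alike. IAPEz-int had an odds ratio of 1.45 (1.14 to 1.86) against the other internal names. IAPLTR1a_Mm had the lowest of the 16 ratios per reads outside rRNA, 0.631 (0.240 to 1.41).

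**Figure D3:**
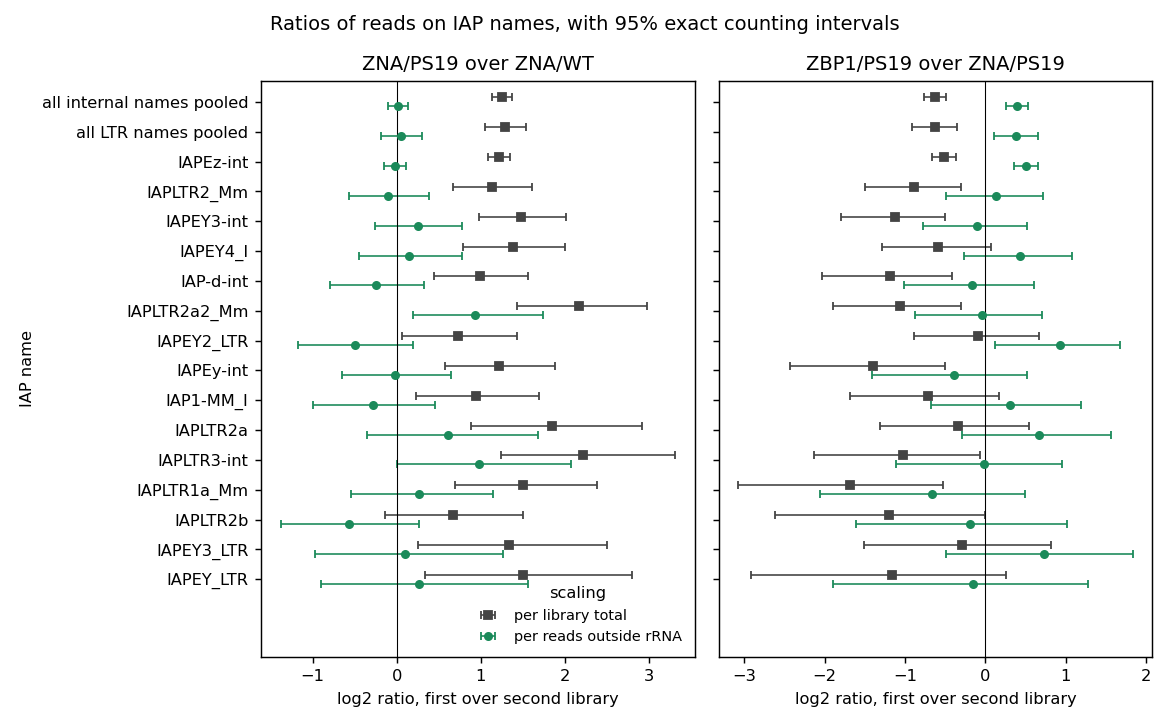
Log2 ratio of reads for the 15 IAP names with at least 20 reads in a library and for the internal and LTR pools, ZNA/PS19 over ZNA/WT (left) and ZBP1/PS19 over ZNA/PS19 (right), per library total (squares) and per reads outside rRNA (circles); lines are exact 95% counting intervals. Per reads outside rRNA most intervals cross 0, and IAPEz-int lies above 0 on the right with a ratio of 1.42.

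IAP was then set beside 3 other groups of mouse endogenous retroviruses, to see where it differed. ETn and MusD elements are relatives of IAP that also retrotranspose within the cell, MERVL is a retrovirus with MT2 LTRs that is known for its burst of expression in the 2-cell embryo, and VL30 and MuLV elements are related to leukaemia viruses. In the ZNA pull-down, PS19 against WT, the ratio per reads outside rRNA was 1.02 (0.944 to 1.09) for IAP, 1.13 (0.981 to 1.30) for the 5 ETn and MusD names, 1.10 (1.04 to 1.16) for the 8 MERVL and MT2 names and 1.36 (1.24 to 1.49) for the 10 VL30 and MuLV names. IAP reads were lower relative to VL30 and MuLV reads in PS19 than in WT, with an odds ratio of 0.746 (0.664 to 0.839). Against ETn and MusD (0.902, 0.769 to 1.06) and against MERVL and MT2 names (0.927, 0.845 to 1.02) the interval included equal odds.

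In the ZBP1 against ZNA comparison the groups went apart. Relative to the reads outside rRNA, the ratio was 1.31 (1.20 to 1.43) for IAP and 1.20 (1.12 to 1.28) for MERVL and MT2 names, but 0.738 (0.605 to 0.895) for ETn and MusD names and 0.728 (0.645 to 0.819) for VL30 and MuLV names. The odds of IAP against ETn and MusD reads were 1.77 times as high in ZBP1/PS19 as in ZNA/PS19 (1.44 to 2.21), and those of IAP against VL30 and MuLV reads 1.80 times (1.56 to 2.09). These 2 odds ratios do not depend on the scaling of the libraries. Against MERVL and MT2 reads the odds ratio was 1.09 (0.981 to 1.21). The higher ZBP1 share was thus seen for the MERVL and MT2 names as well as for IAP. Within that group the ratio per reads outside rRNA was 1.14 (1.02 to 1.26) for internal names and 1.24 (1.14 to 1.35) for LTR names. Per library total the ratio lay below 1 in every group, at 0.648 for IAP, 0.593 for MERVL and MT2, 0.365 for ETn and MusD and 0.360 for VL30 and MuLV. In the 3 groups, as in IAP, the odds ratio of internal against LTR reads included equal odds for ZBP1 against ZNA, at 0.646 (0.395 to 1.08) for ETn and MusD, 0.913 (0.798 to 1.04) for MERVL and MT2 and 1.16 (0.513 to 3.07) for VL30 and MuLV.

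**Figure D4:**
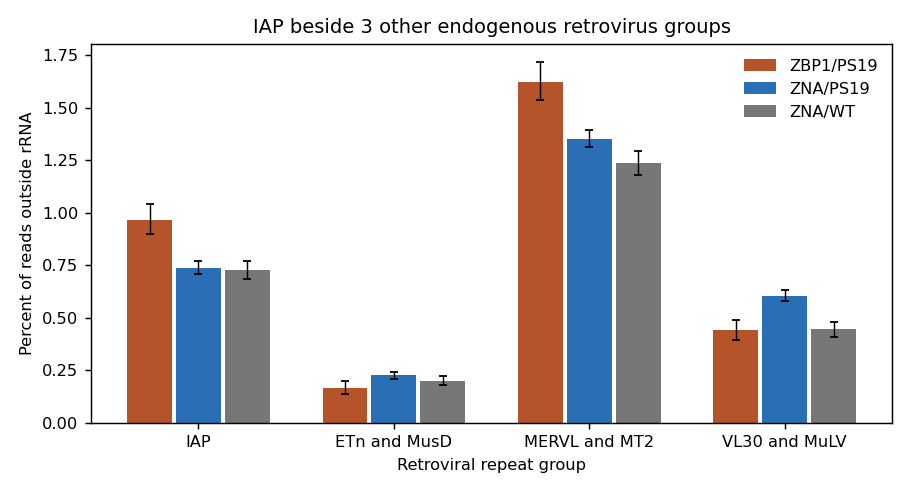
Share of reads outside rRNA on IAP names and on 3 other groups of endogenous retroviruses in ZBP1/PS19, ZNA/PS19 and ZNA/WT; bars are single libraries and error bars are exact 95% counting intervals. IAP and the MERVL and MT2 group are highest in ZBP1/PS19, at 0.968% and 1.62%, and ETn and VL30 groups are highest in ZNA/PS19, at 0.226% and 0.605%.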

How the data were processed

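Each deposited file gives unnormalized counts of reads, as whole numbers, against repeat names (per the file headers). Trim Galore 0.6.5, STAR 2.5.3a, featureCounts 2.0.4 and the build mm39 are named in the submitters' processing notes. The repeat annotation, the strand setting and how multi-mapping reads were handled are not given in the sources used here. That handling can move or drop reads of young, near-identical elements such as IAP.

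Each library's total and its reads outside LSU-rRNA_Hsa and SSU-rRNA_Hsa were used as 2 scalings. Ratios of 2 libraries, taken without a pseudocount, carry exact conditional (Clopper-Pearson) 95% intervals, and 28 odds ratios carry exact conditional intervals. None is adjusted for their number. Calls at 2-fold used log2(CPM + 1), so changes of names with low counts are understated; for the second scaling, CPM was computed on library sizes proportional to the reads outside rRNA with the same geometric mean as the totals. With 1 library per group no test between groups could be fitted and no p-value is given.

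IAP names with at least 20 reads in a library are named with their values, the rest mostly by stem pairs. The members and lists were chosen with earlier results of these data known. The VL30 and MuLV group was planned with the prefix RLTR4; RLTR4_ was used, so that RLTR40 to RLTR49 names, which are other families, stayed out. No IAP sequence is printed. TMM factors, an alternative scaling, came from edgeR 4.0.16 in R 4.3.3; intervals came from scipy 1.17.1 under Python 3.11.15, and tables were handled with pandas 2.3.3.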

Additional observations from a re-analysis of the deposited data

How the results depend on the processing

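The pooled log2 ratio of PS19 over WT ZNA per library total was 1.26 for all IAP names, 1.25 for internal and 1.29 for LTR names. It became 0.023, 0.015 and 0.055 per reads outside rRNA, 0.031, 0.024 and 0.064 under TMM scaling, and 0.023, 0.015 and 0.055 per reads outside rRNA and IAP. The ZBP1 over ZNA log2 ratio in PS19 was -0.63 for each of the 3 pools and changed sign: 0.39, 0.39 and 0.39 per reads outside rRNA, 0.23, 0.23 and 0.23 under TMM (for LTR names the TMM interval, -0.052 to 0.51, includes 0), and 0.39, 0.39 and 0.39 per reads outside rRNA and IAP. IAPEz-int alone went from -0.51 to 0.51 per reads outside rRNA and 0.35 under TMM. Of the 15 named repeats, all 15 PS19 over WT log2 ratios moved beyond their counting interval under both of these scalings and 8 kept their sign; of the ZBP1 over ZNA ratios 11 and 7 did, IAPEz-int among them, and 8 and 9 kept their sign. Within a comparison, a change of scaling adds the same amount to every log2 ratio, so these are not 15 separate results. Why the libraries differed in their share of rRNA was not tested. Leaving IAPEz-int out moved the ZBP1 over ZNA value to -0.83 for all names and -1.05 for internal names.

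The 12 names at least 2-fold higher in PS19 than in WT ZNA became 0 per reads outside rRNA, 0 under TMM, 6 with a pseudocount of 5, 7 at a mean of at least 10 CPM and 0 at 4-fold. The 6 names lower in ZBP1 than in ZNA became 0, 0, 8 with a pseudocount of 0.1, 2 with a pseudocount of 5, 10 at 1.5-fold and 0 at 4-fold. A larger pseudocount draws the log2 ratios of names with low counts toward equal levels by construction. Without IAPEz-int the internal to LTR ratio was 0.746 in ZBP1/PS19, 1 in ZNA/PS19 and 0.951 in ZNA/WT, and without IAPLTR2_Mm 5.22, 5.50 and 5.88, since fewer names are pooled. With 1 library per group, no library could be left out. No paired analysis was possible because each group has 1 library. ZBP1/PS19 was the shallowest library, with 0.702 CPM to a read.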
